A study of Mus musculus with 10 samples.

Results

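Chrna1 and Dach2 are a pair of mouse genes linked to the nerve supply of muscle. They were taken by name from a table of 3480 genes measured in the tibialis anterior, a muscle of the lower hind limb, and are 2 of those 3480 genes. Both were chosen by their normalized counts in the comparison of FoxP1iSkmTg with Control mice, so their difference between the groups is given below as a description without a test. The muscles came from 5 FoxP1iSkmTg mice and 5 Control mice, all female and 13 to 18 weeks old. FoxP1iSkmTg mice have the genotype FoxP1flSTOP x HSA-MerCreMer, that is, a Foxp1 transgene held silent by a floxed stop cassette, plus a Cre recombinase that tamoxifen activates and that the human skeletal alpha-actin promoter drives in muscle fibres. Control mice have the genotype FoxP1flSTOP, with the silent transgene and no Cre. Mice of both groups were given tamoxifen at 80 mg/kg on 4 days. No group carried MerCreMer without the transgene, so an effect of Foxp1 and an effect of activated Cre cannot be told apart for any gene below.

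The muscle acetylcholine receptor sits at the neuromuscular junction, where it turns the transmitter released by the motor nerve into a depolarization of the fibre. Chrna1 encodes its alpha subunit, which carries most of the acetylcholine binding site. In innervated muscle the gene is transcribed mainly by the few nuclei beneath the nerve ending, and after denervation it is transcribed along the whole fibre, driven by myogenin and related factors that bind E-boxes, short DNA motifs with the letters CANNTG. Dach2 encodes a transcriptional corepressor of the Dachshund family. In mouse muscle Dach2 is known to fall after denervation and to hold down Myog, the myogenin gene, in innervated fibres.

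The bases around the start of each gene are shown because E-boxes there are a known part of how receptor genes respond to nerve activity. The windows run from 250 bases before to 50 bases after a transcription start in RefSeq (build GRCm38.p6), written 5' to 3' on the strand of the gene. Capitals mark E-boxes.

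Chrna1, chr2:73580289-73580588, minus strand: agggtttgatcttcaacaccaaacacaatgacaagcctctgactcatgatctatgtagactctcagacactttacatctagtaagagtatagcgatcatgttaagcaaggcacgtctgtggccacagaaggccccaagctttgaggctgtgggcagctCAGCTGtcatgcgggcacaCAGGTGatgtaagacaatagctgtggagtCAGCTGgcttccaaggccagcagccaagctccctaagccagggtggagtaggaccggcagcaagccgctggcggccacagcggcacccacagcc

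Dach2, chrX:113297260-113297559, plus strand: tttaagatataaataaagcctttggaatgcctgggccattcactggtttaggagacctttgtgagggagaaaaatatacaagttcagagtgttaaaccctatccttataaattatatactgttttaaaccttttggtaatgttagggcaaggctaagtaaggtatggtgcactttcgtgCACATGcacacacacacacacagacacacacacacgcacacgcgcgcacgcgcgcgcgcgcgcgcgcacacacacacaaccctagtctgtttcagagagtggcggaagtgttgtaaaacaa

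The Chrna1 window held 3 E-boxes. Counted from the transcription start, they began at -92 (CAGCTG), -73 (CAGGTG) and -44 (CAGCTG). The Dach2 window held 1, at -71 (CACATG). A further RefSeq start of Dach2, with the window chrX:113298006-113298305, held 0. CANNTG reads the same on both strands, and it was present at least 1 time in 72.3% of 32851 windows of this length and at least 3 times in 17.6%. The form CAGCTG, which is one of the spellings of CANNTG, was present at least 2 times, as at Chrna1, in 1.9% of windows. TGTTTAC, a spelling of the forkhead motif searched on both strands, was in none of the 3 windows and in 3.65% of all windows. Base composition differed too, with 54.7% G and C at Chrna1 and 45.3% and 66.3% at the starts of Dach2. A match of letters is a description and does not show that a factor binds.

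The genes also differ in structure. In mm10, Chrna1 (ENSMUSG00000027107) lies on the minus strand of chromosome 2 from 73563215 to 73580338, a span of 17124 bases with 1 annotated transcript of 9 exons. Dach2 (ENSMUSG00000025592) lies on the plus strand of chromosome X from 113297510 to 113836386, a span of 538877 bases with 8 annotated transcripts of 4 to 16 exons. The exons merged over transcripts come to 4386 bases for Chrna1 and 9868 bases for Dach2. These are the lengths by which the FPKM values (fragments per kilobase of exon, scaled by a factor for each library) were divided. A Dach2 transcript with few exons would therefore have its level understated. The annotated snRNA gene Gm24831 lies within Dach2 on the opposite strand. It is not listed in the table, and the sources used here do not say if counting was stranded.

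The gene carried by the transgene was higher in FoxP1iSkmTg mice, which checks the labels. Foxp1, a forkhead transcription factor gene, was at 5352, 2163, 5813, 1423 and 1289 normalized counts in FoxP1iSkmTg replicates 1 to 5. In Control replicates 1 to 5 it was at 371.0, 231.7, 389.9, 270.3 and 259.9. A normalized count is the read count of a gene divided by the size factor that scales its library. The groups were fully apart, with FoxP1iSkmTg replicates 1 and 3 far above the other FoxP1iSkmTg mice, and the log2 fold change was 3.39 ± 0.44 (SE, adjusted p = 0.000631 by edgeR's quasi-likelihood test). Reads of the transgene and of the endogenous gene were counted together.

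Chrna1 was higher in FoxP1iSkmTg muscle. Its normalized counts were 542.1, 450.2, 526.4, 522.9 and 607.7 in FoxP1iSkmTg replicates 1 to 5, against 260.0, 220.3, 245.5, 205.7 and 170.6 in Control replicates 1 to 5. The groups did not overlap, and the lowest FoxP1iSkmTg mouse (replicate 2) stood 1.73-fold above the highest Control mouse (replicate 1). The means were 530 ± 56.1 in FoxP1iSkmTg and 220 ± 35.0 in Control muscle (SD, n = 5 each), 2.40-fold higher or 1.27 on the log2 scale. In bulk muscle, a change in the cells of a type and a change in RNA per cell cannot be told apart. Leaving out each mouse in turn kept that log2 ratio between 1.19 and 1.33. The mice within a group were close together, with a coefficient of variation of 10.6% in FoxP1iSkmTg and 15.9% in Control muscle.

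Dach2 was lower in FoxP1iSkmTg muscle. Its normalized counts were 34.5, 22.5, 28.8, 27.4 and 13.1 in FoxP1iSkmTg replicates 1 to 5, against 169.3, 107.3, 187.6, 98.5 and 176.6 in Control replicates 1 to 5. The groups did not overlap, and the lowest Control mouse (replicate 4) stood 2.85-fold above the highest FoxP1iSkmTg mouse (replicate 1). FoxP1iSkmTg replicate 5 was the lowest of all mice, while Control replicates 2 and 4 lay below the other 3 Control mice. The means were 25.3 ± 8.04 in FoxP1iSkmTg and 148 ± 41.7 in Control muscle (SD, n = 5 each), 5.85-fold lower or -2.55 on the log2 scale, with -2.69 to -2.39 when single mice were left out.

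**Figure D1:**
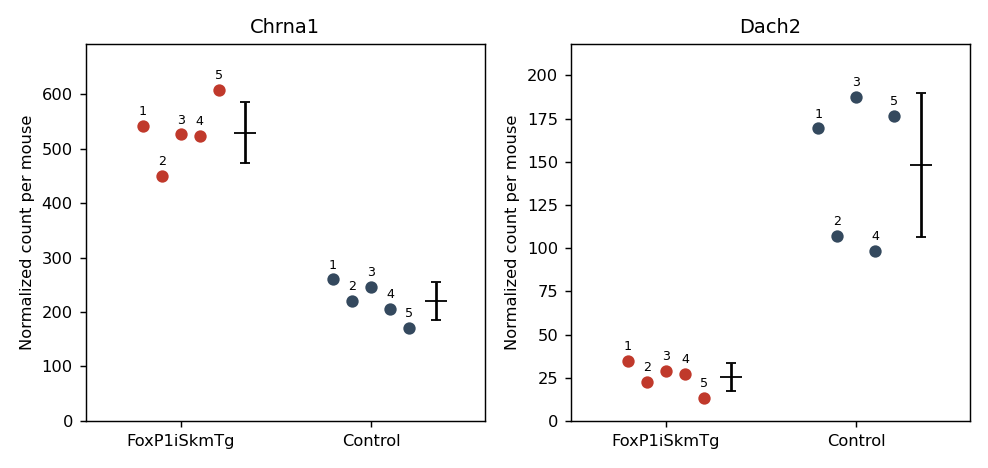
Normalized counts of Chrna1 (left panel) and Dach2 (right panel) in each mouse, with FoxP1iSkmTg left and Control right in each panel and both axes starting at 0. Points are mice labelled by replicate number, and the bar beside them is the mean ± SD (n = 5 each). For Chrna1 all FoxP1iSkmTg mice sit above all Control mice, and for Dach2 all sit below.

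The reads behind these values set their precision. Chrna1 had 644, 421, 511, 649 and 603 reads in FoxP1iSkmTg and 281, 193, 233, 188 and 170 reads in Control mice. Dach2 had 41, 21, 28, 34 and 13 reads in FoxP1iSkmTg and 183, 94, 178, 90 and 176 reads in Control mice. Its lowest FoxP1iSkmTg value, 13 reads, has an exact 95% Poisson interval of 6.92 to 22.2, and its lowest Control value, 90 reads, one of 72.4 to 111. These intervals cover counting error only. The spread of Dach2 among FoxP1iSkmTg mice (2.63-fold between the highest and the lowest) therefore rests on few reads.

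Set against the whole table, each gene stood toward the end of its own direction. Chrna1 was 76th of 3115 genes tested when these were ordered by their rise and Dach2 19th when ordered by their fall. Of the 3115, 544 were called higher (17.5%) and 617 lower (19.8%) in FoxP1iSkmTg muscle at an adjusted p under 0.05 by edgeR. These are 1161 genes or 37.3% of those tested, and 7.33% of the 15846 genes over which p-values were adjusted. The table lists only genes with a low unadjusted p in the authors' comparison, so these shares are high by construction. The lowest FoxP1iSkmTg mouse was above the highest Control mouse for 19.9% of genes tested, and the highest below the lowest Control mouse for 22.4%, and the separation of the groups at Chrna1 and Dach2 is read against that.

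The amounts per length differed between the genes as well as between the groups. Chrna1 was at 6.83 ± 0.728 FPKM in FoxP1iSkmTg and 2.84 ± 0.451 FPKM in Control muscle. Dach2 was at 0.145 ± 0.0461 FPKM in FoxP1iSkmTg and 0.847 ± 0.239 FPKM in Control muscle (SD, n = 5 each). Chrna1 was above Dach2 in every mouse of both groups. The deviations of the mice from their group means did not run together for this pair (Pearson r = -0.0936, Spearman rho = 0.0424 over 10 mice of log2 normalized counts, which share their size factors), so mice with more Chrna1 than their group mean did not hold consistently more or less Dach2.

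The size of the Foxp1 rise was not mirrored in Chrna1. FoxP1iSkmTg replicates 1 and 3 had the most Foxp1 and replicate 5 the least, whereas Chrna1 was highest in replicate 5. Dach2 was lowest in replicate 5 and highest in replicates 1 and 3. With 5 mice no correlation was computed.

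**Figure D2:**
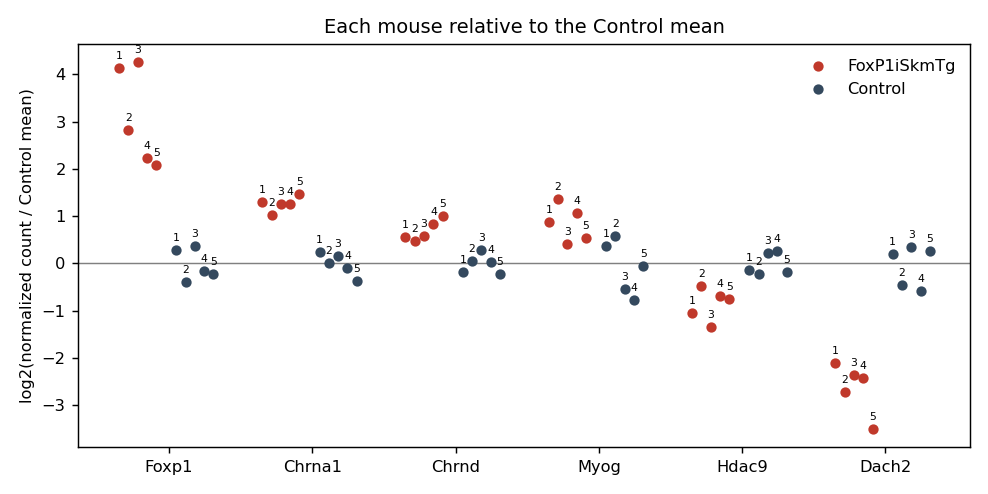
Log2 ratio of the normalized count of each mouse to the Control mean for Foxp1, Chrna1, Chrnd, Myog, Hdac9 and Dach2, with FoxP1iSkmTg mice left and Control mice right for each gene and numbers giving the replicate. For Foxp1 the FoxP1iSkmTg mice spread over a 4.51-fold range, for Chrna1 over 1.35-fold, and Myog is the gene plotted whose groups overlap.

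The other subunits of the receptor did not follow Chrna1 as a group. Chrnd, which encodes the delta subunit, was at 64.0, 59.9, 64.9, 76.5 and 86.7 normalized counts in FoxP1iSkmTg mice, against 37.9, 44.5, 52.7, 43.8 and 37.1 in Control mice. The groups did not overlap, and Chrnd rose with a log2 fold change of 0.71 ± 0.17 (SE, adjusted p = 0.0217). That call was lost without FoxP1iSkmTg replicate 5 (adjusted p = 0.0511), Control replicate 1 (0.0576) or Control replicate 5 (0.0556). Chrnb1, which encodes the beta subunit, was at 421.7, 456.6, 417.2, 441.5 and 454.5 normalized counts in FoxP1iSkmTg mice, against 535.7, 561.6, 575.4, 598.5 and 477.7 in Control mice. These groups did not overlap either, and Chrnb1 fell, with a log2 fold change of -0.33 ± 0.07 (SE, adjusted p = 0.0166). Chrne and Chrng, the genes of the adult epsilon and the fetal gamma subunit, are not listed in the table and were not tested here.

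Per length, the order of the 3 subunit genes was the same in both groups. Chrnb1 was highest, at 9.79 ± 0.409 FPKM in FoxP1iSkmTg and 12.3 ± 1.04 FPKM in Control muscle, followed by Chrna1. Chrnd was lowest, at 1.21 ± 0.19 FPKM in FoxP1iSkmTg and 0.743 ± 0.108 FPKM in Control muscle. Their ranges did not meet within either group. The distance between them changed, since the ratio of Chrna1 to Chrnb1 in FPKM was 0.742, 0.569, 0.728, 0.683 and 0.772 in FoxP1iSkmTg replicates 1 to 5 and 0.280, 0.226, 0.246, 0.198 and 0.206 in Control replicates 1 to 5. The means of this ratio were 0.699 ± 0.0792 and 0.231 ± 0.033, and those of Chrnd to Chrnb1 0.124 ± 0.0174 in FoxP1iSkmTg and 0.0604 ± 0.00621 in Control muscle (SD, n = 5 each). As a ratio within one mouse does not depend on the scaling of its library, these values are the same under every scaling.

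**Figure D3:**
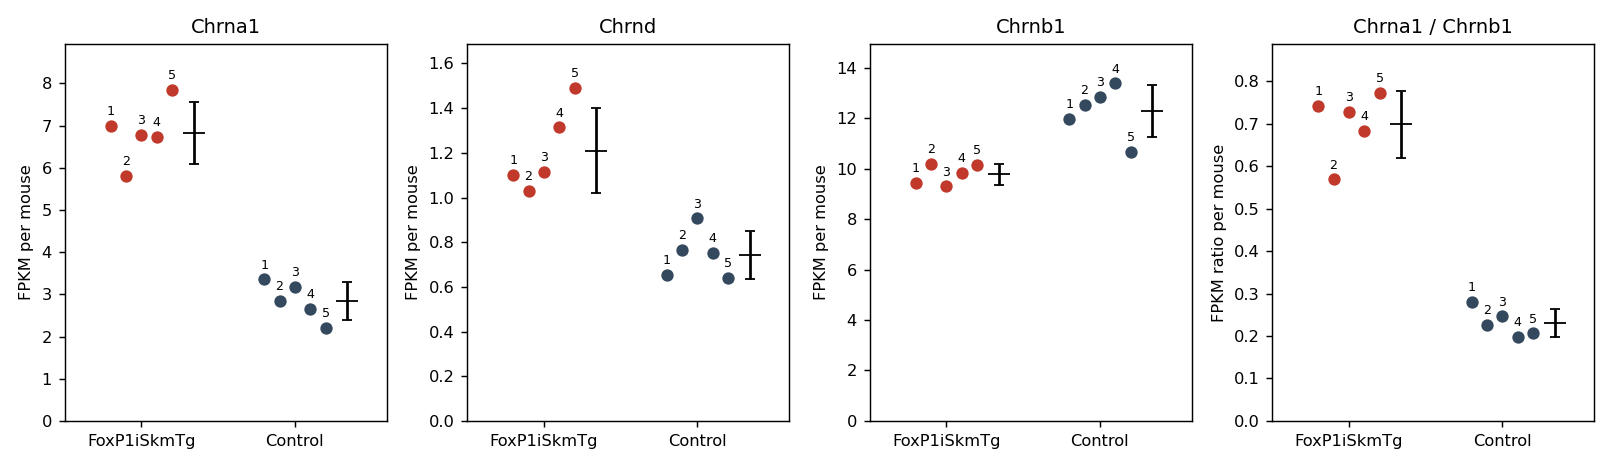
FPKM of Chrna1, Chrnd and Chrnb1 and the FPKM ratio of Chrna1 to Chrnb1 in each mouse, with FoxP1iSkmTg left and Control right in each panel and all axes starting at 0. Points are mice labelled by replicate and bars are the mean ± SD (n = 5 each). The ratio lies between 0.569 and 0.772 in FoxP1iSkmTg and between 0.198 and 0.280 in Control mice.

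Around the receptor, a list of 28 genes of its other subunits and of the endplate was examined, of which 13 are in the table. Of these 13, 4 rose and 3 fell, whereas 6 missed the threshold, with a median log2 fold change of 0.26 against 0.13 over all genes tested, of which 17.5% were called higher and 19.8% lower. Besides Chrnd, the risers encode parts of the signal by which nerve and muscle build the junction. Lrp4, the receptor of agrin, rose with a log2 fold change of 0.68 ± 0.13 (SE, adjusted p = 0.00903), at 505 ± 93.1 normalized counts in FoxP1iSkmTg and 314 ± 46.0 in Control muscle (SD, n = 5 each). Lamb2, the laminin beta chain of the synaptic basal lamina, rose by 0.40 on the log2 scale (adjusted p = 0.00475). Agrn, the agrin gene, was at 1120, 499.4, 1019, 630.8 and 563.3 normalized counts in FoxP1iSkmTg mice, against 394.1, 414.4, 455.3, 484.7 and 433.6 in Control mice. Its FoxP1iSkmTg replicates 1 and 3, those with the most Foxp1, were highest. Its log2 fold change of 0.81 ± 0.21 (SE, adjusted p = 0.0314) did not pass without FoxP1iSkmTg replicate 1 (adjusted p = 0.0636), FoxP1iSkmTg replicate 3 (0.0708) or any 1 of the 5 Control mice (0.0559 to 0.0788).

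The fallers of this list besides Chrnb1 were parts of the dystrophin-associated complex. Sntb1, a syntrophin gene, fell by 0.83 on the log2 scale (adjusted p = 0.0123). Dtna, the alpha-dystrobrevin gene, fell by 0.36 (adjusted p = 0.0413), a call lost without any 1 of FoxP1iSkmTg replicates 1, 2 and 4 or Control replicates 1 to 4 (adjusted p = 0.0547 to 0.101) and with TMM scaling (0.0513). Rapsn and Dok7, whose products act in clustering the receptor, did not pass. Rapsn, the rapsyn gene, stood at a log2 fold change of 0.26 (adjusted p = 0.0971, and 0.0348 without Control replicate 2), and Dok7, an activator of the kinase MuSK, one of 0.26 (adjusted p = 0.0783, and 0.0485 by the DESeq2 Wald test). Ache, the acetylcholinesterase gene, had 0.24 (adjusted p = 0.213), Etv5, an ETS factor of subsynaptic nuclei, 0.34 (0.136, and 0.0486 without Control replicate 1) and Syne1, which anchors nuclei, -0.26 (0.201). Musk itself is among the 15 genes of this list that are not in the table.

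Beside Dach2, a list of 28 regulators was examined: Dach1, class II histone deacetylases, myogenic factors and their partners. Of the 9 that are in the table, edgeR called 5 lower and 0 higher, and 4 missed the threshold (median log2 fold change -0.28), where 19.8% of all genes tested were called lower and 17.5% higher. All 9 had an unadjusted p under 0.05, which the selection of the table makes usual, 3 of them with a positive log2 fold change. The DESeq2 Wald test called 7, adding Myog (adjusted p = 0.0121) and Mef2d (0.0321), both as higher. That test also called more genes than edgeR over all genes tested. Hdac9, a deacetylase gene known to repress receptor genes in innervated muscle, was at 95.97, 143.3, 78.29, 122.5 and 116.9 normalized counts in FoxP1iSkmTg mice, against 180.4, 168.9, 231.8, 236.4 and 174.6 in Control mice. The groups did not overlap, and Hdac9 fell with a log2 fold change of -0.83 ± 0.17 (SE, adjusted p = 0.00933). Its relatives Hdac4, Hdac5 and Hdac7 and the Dach2 homologue Dach1 are not listed in the table.

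Myog, the gene that Dach2 is known to hold down, did not pass. It was at 188.6, 267.3, 137.0, 217.5 and 149.1 normalized counts in FoxP1iSkmTg mice, against 133.2, 154.1, 70.6, 60.2 and 99.4 in Control mice. The groups overlap, since FoxP1iSkmTg replicates 3 and 5 lie below Control replicate 2. The log2 fold change was 0.89 ± 0.26 (SE, adjusted p = 0.0616). Myog passed without Control replicate 2 (adjusted p = 0.0379), without FoxP1iSkmTg replicate 3 (0.0489) and with TMM scaling (0.0496). It also passed with the DESeq2 Wald test (0.0121) and with replicate number as a block in the edgeR fit (0.0284).

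Of the other myogenic factors, Myf6, which is the most abundant of them in adult fibres, fell by 0.54 on the log2 scale (adjusted p = 0.00917), at 661 ± 93.8 normalized counts in FoxP1iSkmTg and 964 ± 113 in Control muscle (SD, n = 5 each). Eya1, a phosphatase and partner of homeodomain factors, fell by 0.53 (adjusted p = 0.0126). The calcium/calmodulin kinase genes Camk2g and Camk2d fell by 0.37 (adjusted p = 0.0235) and 0.26 (0.036). Camk2g, like Hdac9, was lowest in FoxP1iSkmTg replicates 1 and 3, whereas Camk2d, Myf6 and Eya1 were lowest in replicate 5. Camk2g did not pass without Control replicate 1, 2 or 3 (adjusted p = 0.0532 to 0.0639), and Camk2d did not pass with TMM scaling (0.057) or without FoxP1iSkmTg replicate 3, 4 or 5 or Control replicate 1, 2, 3 or 4 (0.0556 to 0.0909). The number of the list past the test was 3 without Control replicate 1 or without Control replicate 3. Mef2d (0.27, adjusted p = 0.0738), Eya3 (0.27, adjusted p = 0.121) and Mef2c (-0.28, adjusted p = 0.209) did not pass, with log2 fold changes as given first, and Mef2d passed with TMM scaling (0.0365) and the DESeq2 Wald test (0.0321).

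Genes known to rise after denervation were then examined beside Chrna1. Of 22 such genes 12 are in the table and 11 could be tested, and edgeR called 6 higher and 0 lower while 5 missed the threshold (median log2 fold change 1.05), where 17.5% of all genes tested were called higher and 19.8% lower. All 11 had an unadjusted p under 0.05, again usual in this table, 2 of them with a negative log2 fold change. The DESeq2 Wald test, which called more genes than edgeR over all genes tested, called 9. It added Runx1 (adjusted p = 0.0386) and Rrad (0.0144) as higher and Fbxo32 (0.0142) as lower. Tnfrsf12a, the TWEAK receptor gene, rose with a log2 fold change of 1.38 (adjusted p = 0.000917), at 538 ± 122 normalized counts in FoxP1iSkmTg and 207 ± 54.2 in Control muscle (SD, n = 5 each). Kcnn3, the gene of an apamin-sensitive potassium channel that innervated muscle largely lacks, rose by 1.05 ± 0.22 (SE, adjusted p = 0.0135), and Ampd3, an AMP deaminase gene, by 0.96 ± 0.19 (SE, adjusted p = 0.00882). For Tnfrsf12a, Kcnn3 and Ampd3, as for Chrna1, no FoxP1iSkmTg mouse reached down to the Control range.

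The largest rises in that list were in genes that developing and cardiac muscle also use. Actc1, the cardiac alpha-actin gene, rose by 3.18 on the log2 scale (adjusted p = 0.00114) and Csrp3, the muscle LIM protein gene, by 2.47 (adjusted p = 0.00165). In both, FoxP1iSkmTg replicates 1 and 3 were highest, as for Agrn and Tnfrsf12a but not for Lrp4, Kcnn3 or Ampd3. Myh3, the embryonic myosin heavy chain gene, was at 468.0, 131.5, 462.5, 89.4 and 152.2 normalized counts in FoxP1iSkmTg mice, against 47.2, 87.9, 37.9, 101.8 and 39.1 in Control mice. Its groups overlap, since FoxP1iSkmTg replicate 4 lies below Control replicate 4, and replicates 1 and 3, those with the most Foxp1, stand apart. Its log2 fold change of 2.06 ± 0.50 (SE, adjusted p = 0.0246) did not pass without FoxP1iSkmTg replicate 1 (adjusted p = 0.0602) or 3 (0.0546) or without Control replicate 1 (0.067), 3 (0.0702) or 5 (0.0659).

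Other denervation genes did not pass. The log2 fold change of Runx1, a transcription factor gene of denervated muscle, was 0.79 (adjusted p = 0.0765), that of Rrad, a small GTPase gene, 1.89 (0.0576) and that of Cdkn1a, a cell cycle inhibitor gene, 0.45 (0.123). Without FoxP1iSkmTg replicate 1 Cdkn1a passed (adjusted p = 0.0204), and so did Rrad without Control replicate 1 (0.0207) or FoxP1iSkmTg replicate 4 (0.0367). The DESeq2 Wald test called Runx1 (adjusted p = 0.0386) and Rrad (0.0144). The ubiquitin ligase genes Fbxo32 and Trim63, which are known to rise in denervation atrophy, had negative log2 fold changes of -0.62 (adjusted p = 0.0691) and -0.95 (0.181). Fbxo32 passed as lower without FoxP1iSkmTg replicate 5 (adjusted p = 0.00436) and with the DESeq2 Wald test (0.0142). With replicate number as a block in the edgeR fit, Fbxo32 (adjusted p = 0.0217) and Trim63 (0.0174) both passed as lower. Gdf5, a growth factor gene of denervated muscle, had 2, 2, 1, 2 and 4 reads in FoxP1iSkmTg mice and 0 in all 5 Control mice, which was too low to be tested.

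Of 6 genes known to fall after denervation all are in the table, and they moved both ways, with 2 higher, 2 lower and 2 that did not pass (median log2 fold change -0.31), beside 37.3% called in either direction among all genes tested. Ppargc1a, the PGC-1alpha gene, fell by 0.54 on the log2 scale (adjusted p = 0.00308), and Pvalb, the calcium buffer parvalbumin of fast fibres, fell by 0.50 (adjusted p = 0.0125). Slc2a4, the GLUT4 gene, rose by 0.27 (adjusted p = 0.0249) and Hk2, the hexokinase gene of muscle, by 0.29 (adjusted p = 0.0343). The count of 4 was 2 without Control replicate 3, Control replicate 5 or FoxP1iSkmTg replicate 5, in each of which Slc2a4 (adjusted p = 0.0528 to 0.0642) and Hk2 (0.0535 to 0.0746) did not pass, and Hk2 did not pass without any other single Control mouse or without FoxP1iSkmTg replicate 2 or 4 (0.0645 to 0.076). The log2 fold change of Aqp4, a water channel gene, was -0.46 (adjusted p = 0.11) and that of Ckm, the muscle creatine kinase gene, -0.16 (adjusted p = 0.177).

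**Figure D4:**
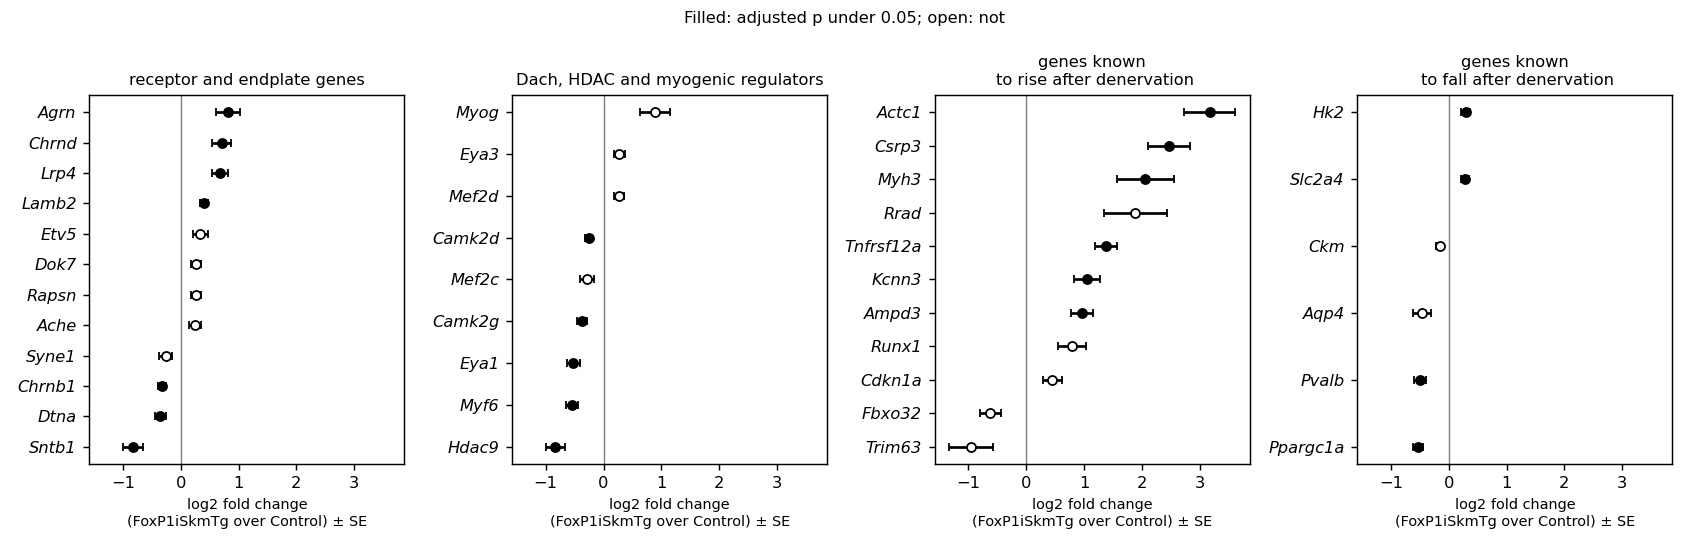
Log2 fold change ± SE by edgeR (5 FoxP1iSkmTg over 5 Control mice) of the genes named here from 4 lists, a panel for each list. Filled points passed an adjusted p of 0.05 and open points did not, and Chrna1 and Dach2, being described without a test, are not drawn. In the first panel 4 genes rose and 3 fell, in the second 5 fell, in the third 6 rose, and in the fourth 2 rose and 2 fell.

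Few markers of other cell types are in the table. Of 8 skeletal muscle fibre markers 5 are in the table. Of these, 3 fell (Acta1, Mylpf and Pvalb), where 19.8% of all genes tested were called lower. Ckm (adjusted p = 0.177 by edgeR) and Tnnt3 (0.283) did not pass. The summed level of the 5 was 683900 to 868900 normalized counts in FoxP1iSkmTg and 965500 to 1152000 in Control mice. The part of these fibre genes in the values of Chrna1 and Dach2 was not tested. Dach2 was lower in FoxP1iSkmTg muscle, as the summed level of these markers was, and Chrna1 was higher. Of 7 Schwann cell markers 1 (Ngfr, at 6.73 to 26.2 normalized counts in FoxP1iSkmTg and 18.5 to 32.1 in Control mice) and of 6 satellite cell markers 1 (Sdc4, at 434 to 570 in FoxP1iSkmTg and 294 to 516 in Control mice) are in the table, and neither passed (adjusted p = 0.281 and 0.171), Sdc4 passing without Control replicate 5 (0.0467). The defining markers Sox10, Pax7 and Myf5 are not listed, nor is any of 6 macrophage, 6 fibro-adipogenic, 4 endothelial and 3 erythroid markers. Of 3 adipocyte markers Plin1 is listed (16.0 to 62.3 normalized counts in FoxP1iSkmTg and 8.75 to 26.4 in Control mice, adjusted p = 0.23), and of 3 neutrophil markers S100a9, with 1 to 6 reads in FoxP1iSkmTg and 7 to 16 in Control mice and not tested. Their part in the results was not tested. Of 6 regeneration genes, Myh3 and Myog, both described above, are in the table, while the fusion genes Mymk and Mymx are not listed.

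The nearest protein-coding genes were looked at for shifts shared along the chromosome. Wipf1 and Chn1, which lie 33.5 and 30.3 kb from Chrna1, are not listed in the table. Chm, a gene of protein prenylation 112 kb from Dach2, fell by 0.31 on the log2 scale (adjusted p = 0.0183), and Klhl4, 638 kb away on the other side, is not listed.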

How the data were processed

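Poly-A RNA of the tibialis anterior of 10 mice was sequenced as paired ends. The authors deposited whole-number read counts, a normalized signal (each count over the DESeq2 size factor of its library) and FPKM values for each mouse. Deposited beside these were the gene length, another column, and the authors' own comparison (log2 fold change with its p-value, raw and adjusted), not used here except to recover the 15846 genes adjusted over and the listing limit (highest unadjusted p 0.04998). The submitters' processing notes name HISAT2 2.0.5, DESeq2 1.20.0 and mm10, whereas the study's methods name STAR and HTSeq, so the aligner is not settled.

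The table lists 3480 genes, and listed counts sum to 6620970 to 8737660 per mouse, which is not the depth. Library totals implied by FPKM (15510420 to 21989419) follow the size factors within 0.166% and are not taken as depth either. The test on the counts was the two-sided quasi-likelihood test of edgeR 4.0.16 (glmQLFit and glmQLFTest) in R 4.3.3, scaled by the authors' size factors, on the 3115 genes that filterByExpr kept at a minimum count of 10, with Benjamini-Hochberg adjustment over 15846 genes. Genes not listed were taken to have larger p-values. The authors' size factors were preferred to TMM because TMM assumes that most genes do not change, and the table holds a selection of genes that differ. The fit was also run on simulated counts in which most genes did not change. The table differs from that setting, as its genes were selected for a low p. That run therefore cannot show how the selection affects the adjusted p-values. For Chrna1 and Dach2 the log2 ratio of mean normalized counts is given.

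Chrna1 and Dach2 and all lists were chosen with earlier results of these data known, and no list is independent support. Named are Chrna1, Dach2, Foxp1, every tested member of the receptor, regulator and denervation lists, called members of marker lists, the neighbours, and for each of Chrna1 and Dach2 the 3 genes with the highest and the 3 with the lowest Pearson correlation. Marker genes that did not pass, and the other nicotinic receptor genes, were named after their values were seen. Not every gene counted under these rules is reported here by name. Gene structures come from GENCODE and promoters from RefSeq. Alternatives were DESeq2 1.42.0, TMM, size factors from listed genes, no filter, a mean of at least 100 normalized counts, a replicate block, pseudocounts of 0.1 and 1 on FPKM, and each mouse left out in turn.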

Additional observations from a re-analysis of the deposited data

Results flagged for a closer look

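Of 122 groups of 5 values, 8 had their highest or lowest mouse well apart from the next, by 0.723 to 0.864 of the group's range. For independent groups of normally distributed values the rule would pick about 1 in 20, or 6.1. The groups here are genes of the same mice, and some genes were picked for their variation among mice. The 8 therefore cannot be judged against 6.1. Neither Chrna1 nor Dach2 was among the 8. In FoxP1iSkmTg mice, Eya1 was highest in replicate 4 at 393.2 normalized counts (next highest 312.1), Cdkn1a lowest in replicate 1 at 617.0 (next lowest 1002) and Ckm lowest in replicate 1 at 155600 (173900). Replicate 5, which had the least Dach2, was highest for Ube2g2 at 1201 (1038) and for Dnajc9 at 225.7 (188.5), which were picked for running against Dach2 among mice. In Control mice, Rrad was highest in replicate 1 at 13.88 (4.377), and replicate 5 was lowest for Hk2 at 6263 (7150) and for Irgq at 499.8 (643.4), which was picked for running with Chrna1.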

How the results depend on the processing

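On the log2(FPKM + pseudocount) scale the difference of Chrna1 was 1.03 with a pseudocount of 1, and that of Dach2 was -1.94 with 0.1 and -0.68 with 1, as a pseudocount shrinks the difference of a gene at low FPKM. None of 59 named tested genes changed direction under any alternative. The number of genes called, 1161 as reported, was 1259 with TMM (55.0% of them higher, against 46.9%), 1624 with the DESeq2 Wald test, 907 with the replicate block and 835 to 1230 with single mice left out. With single mice left out, 3 to 5 of the Dach, HDAC and myogenic regulators passed and 2 to 4 of the genes known to fall after denervation; fewer samples were tested there. The labels do not say that mice with the same replicate number are paired. Correlations of their deviations were -0.0227 to 0.0287, with 0 of 5 closest to the own number. These correlations run over all genes tested, so they cannot decide if mice of the same number share a batch. With the replicate block 4 receptor and endplate genes passed in place of 7, and of the named genes 13 lost and 5 gained the call. Chrnb1, Chrnd and Agrn were among the 13. The 5 were Myog and Rrad, as higher, and Fbxo32, Trim63 and Aqp4, as lower. The cause was not tested. The DESeq2 Wald test changed 7 calls, TMM 4, and no filter 0. Dach2 rests on few reads, 13 to 41 in FoxP1iSkmTg mice.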

Other observations

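The genes whose variation among mice was most like that of Chrna1 were sought over 10 mice among 2506 genes, as deviations from the group mean of log2 normalized counts that share size factors. Highest were Mybbp1a (r = 0.934, rho = 0.794), Pik3c3 (r = 0.922, rho = 0.915) and Irgq (r = 0.914, rho = 0.915), and lowest Lcor (r = -0.915, rho = -0.818), Psd3 (r = -0.899, rho = -0.842) and 4932438A13Rik (r = -0.885, rho = -0.855). Between groups these moved less than Chrna1, with log2 ratios of -0.48 to 0.49. For Dach2 the highest were Enpp4 (r = 0.878, rho = 0.915), Lama2 (r = 0.859, rho = 0.855) and Rbms1 (r = 0.857, rho = 0.818), and the lowest Ube2g2 (r = -0.969, rho = -0.867), Dnajc9 (r = -0.903, rho = -0.818) and Zfp641 (r = -0.878, rho = -0.842). Picked by Spearman instead, 2 of the 6 for Chrna1 and 1 of the 6 for Dach2 were shared.

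Of nicotinic receptor subunit genes that are not part of the muscle receptor, 3 are in the table, with values seen before they were named. Chrna4 was at 11.3 to 53.0 normalized counts in FoxP1iSkmTg and 0 to 11.1 in Control mice (adjusted p = 0.0297 by edgeR). Chrna9 was at 29.5 to 94.3 in FoxP1iSkmTg and 14.2 to 43.2 in Control mice (adjusted p = 0.167), and Chrna10 at 21.6 to 82.6 in FoxP1iSkmTg and 75.9 to 125 in Control mice (0.188), and neither passed.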
